A study of Homo sapiens with 28 samples.

Results

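The vitamin D receptor VDR was profiled by chromatin immunoprecipitation and sequencing (ChIP-seq) in EPC2, a line of immortalised epithelial cells from the human esophagus. The regions considered are those called for VDR both with added vitamin D and without it. They were selected by overlap: a region of the vitamin D VDR list was a member if it shared at least 1 base with a region of the untreated VDR list and none with a STAT6 region called after IL-13. The vitamin D list held 9224 regions and the untreated list 1828. Of the vitamin D regions, 1571 shared bases with an untreated region, 75 of these also met a STAT6 region, and 1496 regions remained, 16.2% of the vitamin D list. The untreated list was mostly contained in the vitamin D list: 1633 of its 1828 regions (89.3%) shared bases with a vitamin D region and 195 did not.

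The cells were left untreated, or received vitamin D (100 nM), IL-13 (100 ng/ml) or the 2 agents together for 6 h. VDR was profiled in untreated and vitamin D-treated cells, STAT6 in untreated and IL-13-treated cells, and the histone marks H3K27ac, H3K9ac and H3K4me3 under all 4 conditions. Each of these 16 libraries stands alone, so no ChIP value has a replicate spread. RNA sequencing covered 12 samples, 3 per treatment. Each RNA table gave 1 RPKM value per group, so spread and read depth per sample are unknown. Whether the 3 samples of a group came from separate cultures is not stated, so the p-values may measure technical spread only. The labels do not name the form of vitamin D. All groups are 1 cell line.

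VDR is a nuclear receptor that binds DNA as a partner of the retinoid X receptors, and its hormone ligand changes which co-activators and co-repressors it carries. The classical VDR element is a direct repeat of a hexamer half-site with a short spacer. In epithelia the receptor controls its own ligand's breakdown through CYP24A1 and innate defence genes such as CAMP and CD14. STAT6 is the factor that carries the IL-13 signal. H3K27ac and H3K9ac mark active enhancers and promoters, and H3K4me3 marks promoters.

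The sequences that the annotation allows to be shown lie just before the starts of genes covered by a member. The 250 bases before the start are printed 5′ to 3′ on the gene's strand, from RefSeq on GRCh38.p14. The regions themselves are on hg19. The first 3 were chosen because they hold the direct repeat of half-sites (AGGTCA or AGTTCA or GGGTCA or GGTTCA, spaced by 3 bases). Both strands were searched, and the half-sites of that repeat are in capitals. The windows of SYS1, a Golgi membrane protein gene, and of PNPLA8, a phospholipase gene, hold it as the gene is read. The window of SMARCA5, a chromatin remodelling ATPase gene, holds it on the opposite strand.
SYS1, chr20:45362906-45363155, plus strand: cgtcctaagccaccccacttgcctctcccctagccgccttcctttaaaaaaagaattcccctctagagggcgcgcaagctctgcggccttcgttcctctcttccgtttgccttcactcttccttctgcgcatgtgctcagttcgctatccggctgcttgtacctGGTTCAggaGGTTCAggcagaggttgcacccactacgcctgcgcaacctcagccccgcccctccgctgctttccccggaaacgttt
PNPLA8, chr7:108528179-108528428, minus strand: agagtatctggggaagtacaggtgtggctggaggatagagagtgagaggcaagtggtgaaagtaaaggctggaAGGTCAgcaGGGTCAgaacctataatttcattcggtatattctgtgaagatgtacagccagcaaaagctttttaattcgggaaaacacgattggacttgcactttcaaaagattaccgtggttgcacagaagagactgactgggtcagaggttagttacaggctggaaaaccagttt
SMARCA5, chr4:143513452-143513701, plus strand: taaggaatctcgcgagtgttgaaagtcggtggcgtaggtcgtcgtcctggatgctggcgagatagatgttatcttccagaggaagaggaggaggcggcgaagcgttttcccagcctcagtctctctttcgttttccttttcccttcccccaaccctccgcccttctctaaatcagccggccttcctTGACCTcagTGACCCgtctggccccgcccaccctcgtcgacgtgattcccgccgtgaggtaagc
The last 2 are the windows of CAMP, which encodes the antimicrobial peptide cathelicidin and has the strongest member with vitamin D, and of CD14, a co-receptor for bacterial lipopolysaccharide. In these any single half-site is in capitals. CD14 has 1 and CAMP has 0. By the gene starts on hg19, the vitamin D summits lay at -462 for CAMP, 405 for CD14, -336 for PNPLA8 and 81 for SMARCA5. These positions are outside the printed bases, which therefore do not show the sequence at those summits. The SYS1 summit, at -98, fell inside.
CAMP, chr3:48223245-48223494, plus strand: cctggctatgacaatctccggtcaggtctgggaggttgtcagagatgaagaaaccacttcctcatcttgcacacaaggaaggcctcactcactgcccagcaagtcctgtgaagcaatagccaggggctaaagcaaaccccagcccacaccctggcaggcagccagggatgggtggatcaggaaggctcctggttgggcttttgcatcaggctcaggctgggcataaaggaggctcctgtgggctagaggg
CD14, chr5:140633176-140633425, minus strand: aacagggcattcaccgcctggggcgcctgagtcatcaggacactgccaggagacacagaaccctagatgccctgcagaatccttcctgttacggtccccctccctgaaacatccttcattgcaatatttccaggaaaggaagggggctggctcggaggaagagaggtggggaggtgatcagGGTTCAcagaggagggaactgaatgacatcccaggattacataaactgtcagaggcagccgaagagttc

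The repeat was found in 4 of 117 windows of 300 bases (250 before to 50 after the start) that a member covered by at least 1 base. SYS1 and the overlapping read-through gene SYS1-DBNDD2 share 1 repeat. It was found in 26 of all 35116 RefSeq windows (0.074%) and in 0 of 349 windows covered by a vitamin D-only region. The member genes had an entry in 117 of 158 cases (74.1%), under the 80% needed to compare shares, so this comparison is void and the counts only describe the windows found. Any half-site was present in 53 of the 117 windows (45.3%), in 49.0% of vitamin D-only windows and in 38.6% of all windows. In the same order the SP1 core GGGCGG was present in 86 (73.5%), 74.8% and 44.95%, and the ETS core CCGGAA in 36 (30.8%), 34.4% and 17.2%. The AP-1 heptamer TGANTCA was present in 7 (5.98%), 6.59% and 7.71%, and the STAT pattern TTCNNNGAA in 5 (4.27%), 8.02% and 7.66%. The STAT pattern can overlap the half-sites AGTTCA or GGTTCA. A match is a run of letters and not a measured site, and its lack says only that these letters are not in the window.

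The 3 genes with the repeat were paired with members of middling strength. The SYS1 member had a VDR fold enrichment over background of 13.1 untreated and 21.8 with vitamin D, the PNPLA8 member 9.94 and 19.2, and the SMARCA5 member 8.29 and 14.7. Their RNA differed little between treatments. In the authors' deposited table SMARCA5 differed by 0.22 on the log2 scale with vitamin D (adjusted p = 4.67e-08), SYS1 by 0.15 (adjusted p = 0.0235) and PNPLA8 by 0.08 (adjusted p = 0.253).

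The members were strong regions with vitamin D. Their values are a description, since the rule used both VDR lists. Fold enrichment, the authors' ratio of stacked fragments to local background at the summit, ran from 3.52 to 120 with vitamin D (median 18.98) and from 3.49 to 80.7 untreated (median 6.89). The 7412 vitamin D regions that met neither an untreated VDR region nor a STAT6 region, called vitamin D-only regions here, had a median of 6.24. Members were also wider, with a median of 826.5 bases against 296. Among the 100 regions with the highest -log10 q of the vitamin D list, 92 were members and 0 were vitamin D-only, the other 8 having met STAT6 as well. Of the top 1000, 795 were members and 152 vitamin D-only.

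Fold enrichment was higher with vitamin D in 1435 members and higher untreated in 61. The ratio of the former to the latter had a median of 2.48 and ran from 0.536 to 9.85, with 85 members at 5 or more. The vitamin D library had been scaled before deposit, so raw pileup was not compared between the lists. Its median background, computed back from pileup and fold enrichment, was 1.00, and that of the untreated library 0.895. Across the 1496 members the fold enrichments of the 2 lists had a Spearman rho of 0.667, over regions that share their libraries. The strongest summits of the 2 lists lay a median of 59.5 bases apart, and 647 members (43.2%) had them within 50 bases.

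**Figure D1:**
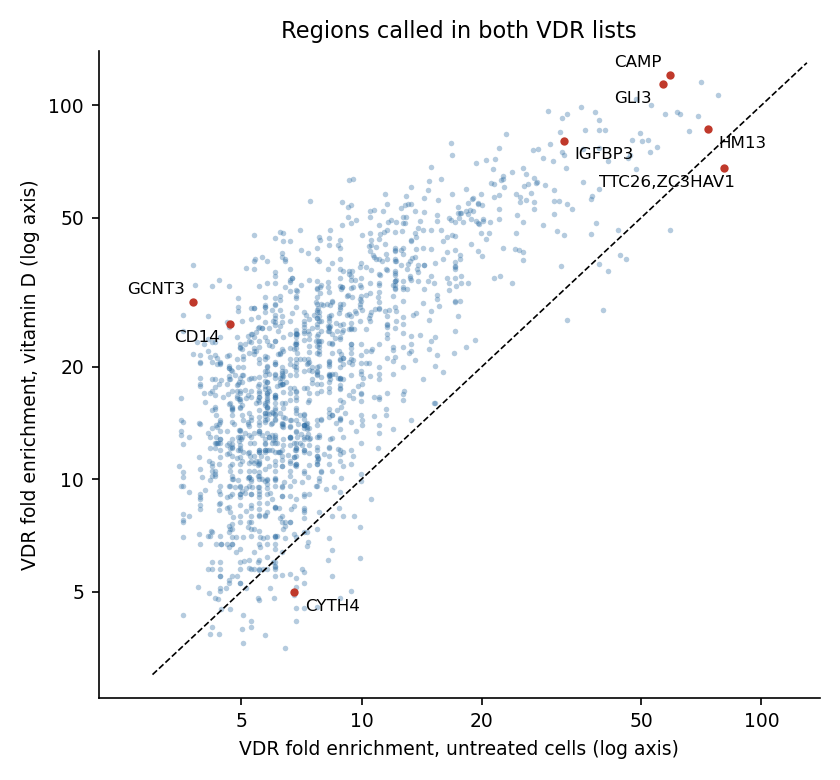
VDR fold enrichment of the 1496 regions called in both lists, untreated on the horizontal and vitamin D on the vertical log axis, 1 point per region with 8 named in red. The dashed line marks equal values: 1435 points lie above it, and 61 below it, among them the regions at CYTH4 and at TTC26 and ZC3HAV1.

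The untreated call was weak for some members. The -log10 q untreated was under 2 in 61 members and at least 10 in 570, with a median of 7.20, while the median with vitamin D was 44.3. At the edge of the rule, 8 members shared under 50 bases with an untreated region. The member at CSNK1A1, a casein kinase gene, shared 2 bases and had a fold enrichment of 5.80 untreated and 7.01 with vitamin D. Just outside, 9 regions lay within 100 bases of an untreated region. The nearest, at GALNT5, was 8 bases away with a fold enrichment of 7.08, and regions at the keratin genes KRT14 and KRT19 lay 17 and 30 bases away with 6.20 and 6.01.

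The strongest member with vitamin D was at CAMP (chromosome 3, 48263534 to 48265236, hg19), a region of 1703 bases in the promoter with its summit at position -462 from the transcription start. Its fold enrichment was 59.1 untreated and 120 with vitamin D, and its summits were 11 bases apart. Second was an upstream region of DUT, the dUTPase gene (chromosome 15, 48601359 to 48602723), at 70.7 and 115 with summits at the same base. Next came an intronic region of GLI3, a Hedgehog pathway transcription factor gene (chromosome 7, 42023809 to 42025372), at 56.6 and 114. The exonic region of HM13, the signal peptide peptidase gene (chromosome 20, 30152866 to 30154665), had 73.4 and 86.3, and the intronic region of CMIP (chromosome 16, 81564415 to 81566306) had 77.7 and 106. These 5 regions were also among the 6 strongest members untreated.

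The remaining one of those 6 had no higher value with vitamin D. It lay upstream of TTC26 and ZC3HAV1, the latter an antiviral zinc finger gene (chromosome 7, 138802275 to 138804099), with a fold enrichment of 80.7 untreated and 68.0 with vitamin D, a ratio of 0.842. The other members ranked high with vitamin D had ratios of 1.69 to 3.299. They were at PLK2, a polo-like kinase gene (52.8 and 100), at FOS, a subunit gene of AP-1 (49.8 and 84.1), at DNER, a gene related to the Notch ligands (26.2 and 61.8), at LOC254128 (31.6 and 92.7), at HHIPL2 (29.3 and 96.6) and at MARCKS, a protein kinase C substrate gene (35.4 and 99.3). SULF1, an extracellular sulfatase gene, completed the 12 with 48.6 and 104. Of these only the LOC254128 and DNER regions lay inside the paired gene. The HHIPL2, MARCKS and PLK2 regions were intergenic, with summits at 589642, -464492 and 527285 bases from the paired start, so that pairing is loose.

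The highest ratio, 9.85, was that of an intronic region at TRIM35 (3.798 untreated and 37.4 with vitamin D), followed by an upstream region of SYT8 and TNNI2 at 8.62 (3.83 and 33.0). The promoter region of UCA1, a long non-coding RNA gene (chromosome 19, 15938825 to 15940114), had 5.38 untreated and 45.01 with vitamin D. The intergenic region paired with GCNT3 had 3.798 and 29.7, an intronic region at ARSG 4.22 and 32.95, and the promoter region of SERPINB1 4.40 and 34.1. All of these untreated values were under the members' lower quartile of 5.52, with -log10 q of 1.84 to 3.98. The high ratios thus rest on weak untreated calls. The lowest ratios belonged to regions at CTIF (9.39 and 5.04), NIPBL (8.84 and 4.80) and in an exon of the keratin gene KRT5 (6.43 and 3.52). The KRT5 value of 3.52 was the lowest of all members with vitamin D, and another exonic KRT5 member had 8.88 and 10.1. The 61 members with the higher untreated value had medians of 7.08 untreated and 5.56 with vitamin D and a median width of 458 bases, and 46 of them (75.4%) met an untreated H3K27ac region, close to the share of all members given below. Counted by class, 7 of 110 exonic members (6.36%), 11 of 211 promoter members (5.21%) and 18 of 532 intergenic members (3.38%) had the higher untreated value.

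Members lay in promoters, gene bodies and intergenic sequence in shares close to those of the vitamin D-only regions, by the classes in the authors' lists. There were 211 in promoters (14.1%; 13.4% of vitamin D-only regions), 157 upstream (10.5%; 12.1%), 486 in introns (32.5%; 35.1%) and 532 intergenic (35.6%; 35.3%). Exons held 110 (7.35%; 4.10%). The median ratio of fold enrichment was lowest in exons, at 1.92, and 2.205 in promoters, 2.46 in introns, 2.61 in intergenic and 2.66 in upstream members. No test was made, since regions of 1 library are not replicates.

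Most members already carried H3K27ac without vitamin D. In untreated cells 1145 members (76.5%) shared bases with an H3K27ac region, 638 (42.6%) with an H3K9ac region and 371 (24.8%) with an H3K4me3 region. The vitamin D-only regions had 67.1%, 31.9% and 18.0%. With vitamin D the members had 77.9%, 53.1% and 25.7%, and the vitamin D-only regions 62.4%, 36.6% and 18.8%. With IL-13 the members had 61.8%, 39.97% and 23.7%, and with both agents 74.6%, 50.1% and 25.7%. Members are wider, so the count was repeated with the single base of the vitamin D summit, which had to lie inside the mark region. By that measure H3K27ac held 69.99% of members untreated and 67.8% with vitamin D, and 62.1% and 56.1% of vitamin D-only regions. H3K9ac held 24.7% and 32.4% of members and 22.0% and 26.2% of vitamin D-only regions, so the gap between the sets was smaller for H3K9ac than by any shared base. The lists of a mark also differ in size, from 67183 to 91881 regions for H3K27ac, 49647 to 53630 for H3K9ac and 19160 to 19740 for H3K4me3.

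**Figure D2:**
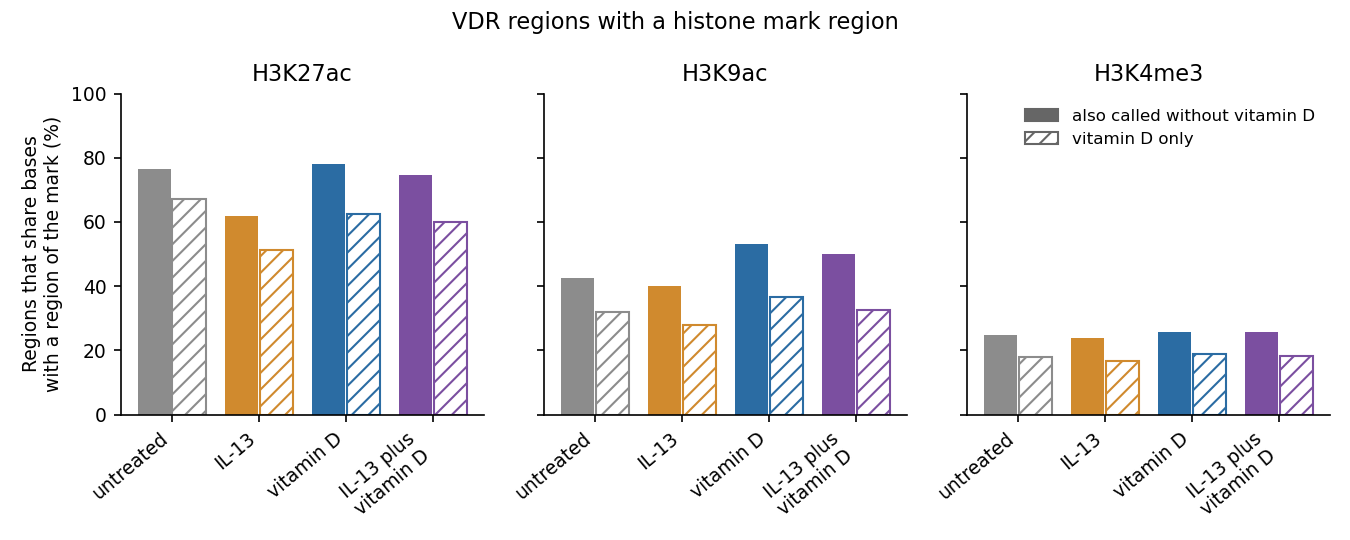
Percent of VDR regions that share at least 1 base with a region of each mark, by treatment, for the 1496 regions also called without vitamin D (filled) and the 7412 vitamin D-only regions (hatched), 1 library per bar. The filled bar is the taller of each pair, and for H3K9ac the members' bars are 53.1% and 50.1% in the 2 libraries with vitamin D and 42.6% and 39.97% in the others.

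Some members had a mark region in both libraries with vitamin D and in neither without. For H3K9ac there were 75 (5.01%; 2.42% of vitamin D-only regions), and 6 with the reverse pattern. For H3K27ac there were 44 (2.94%; 1.07%), and 4 the reverse. For H3K4me3 there were 14 (0.936%; 0.445%), and 1 the reverse. The stronger members with vitamin D had more of them: in 4 classes of equal size by -log10 q, from weakest to strongest, H3K9ac appeared in 12, 13, 21 and 29 of 374 members, and H3K27ac in 6, 4, 13 and 21. These counts used any shared base and were not repeated with the summit base, although members are wider than vitamin D-only regions. Width was not compared between the 4 classes, so its part in these counts was not tested. The GLI3 intronic region was among the H3K27ac set, with a mark fold enrichment of 5.78 with vitamin D and 5.75 with both agents. An intronic region of HSD17B2, a steroid dehydrogenase gene (chromosome 16, 82115738 to 82117151), gained both marks: H3K27ac was 6.93 and 7.03, and H3K9ac 4.77 and 4.09. The DNER region went from an H3K27ac fold enrichment of 3.76 untreated to 13.9 with vitamin D and 13.4 with both, and had H3K9ac in those 2 libraries at 5.45 and 4.78.

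Where a mark region was called both with and without vitamin D, its fold enrichment was compared after centring on the median of all such regions. At members, 209 of 1113 H3K27ac regions (18.8%) were at least 1.5-fold higher with vitamin D and 7 (0.629%) lower, against 6.34% and 4.14% of all 45097. Centring mattered here. The median of all H3K27ac regions was -0.27 on the log2 scale before it, and without it the members' counts were 102 higher and 44 lower. For no mark is the share of all regions without centring given here. The uncentred counts therefore cannot be set against the centred shares. For H3K9ac 69 of 662 (10.4%) were higher and 15 (2.27%) lower, against 6.2% and 5.79% of all. Without centring they were 53 and 25. For H3K4me3 15 of 370 (4.05%) were higher and 17 (4.59%) lower, against 3.15% and 1.26%. The overall median there was 0.17, and without centring the members' counts were 29 and 10. The direction of the members' H3K4me3 counts thus flipped with the scaling, and whether that of all regions did is not given.

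A second pair of libraries, both agents against IL-13 alone, shares none with the first. At members, 191 of 947 H3K27ac regions (20.2%) were at least 1.5-fold higher and 15 (1.58%) lower, against 6.9% and 5.06% of all. For H3K9ac 85 of 611 (13.9%) were higher and 17 (2.78%) lower, against 7.11% and 5.51%. For H3K4me3 24 of 359 (6.69%) were higher and 23 (6.41%) lower, against 3.23% and 1.68%. The vitamin D-only regions gave 10.1% higher and 1.73% lower for H3K27ac in the first pair, and 11.9% and 2.25% in the second. With 1 library per condition these are counts past a fold, and no test was made.

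**Figure D3:**
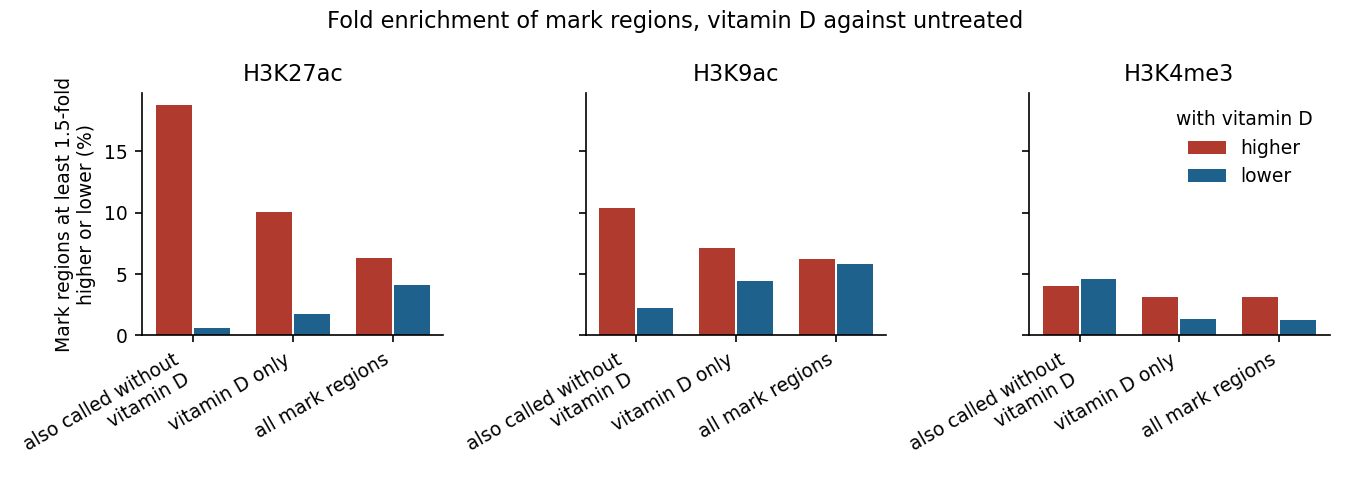
Percent of mark regions at least 1.5-fold higher (red) or lower (blue) with vitamin D than untreated after centring, at the regions also called without vitamin D, at the vitamin D-only regions and over all regions of the mark. For H3K27ac the first red bar stands at 18.8% and the last at 6.34%. For H3K4me3 the members' bars are 4.05% and 4.59%, a direction that flips without centring (29 higher, 10 lower). The share of all regions without centring is not given.

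The peak lists paired the members with 1378 genes, 1358 of which were in the RNA tables. With vitamin D, 499 of the 1135 genes tested (44.0%) were higher and 152 (13.4%) lower at the authors' adjusted p of 0.05, against 17.5% and 15.1% of all 15177 genes tested. Their median log2 change in the authors' deposited table was 0.12, and that of all genes was 0.00. Of the 1135, 83 (7.31%) were higher and 4 (0.352%) lower by at least 2-fold at the same adjusted p in the authors' deposited table, against 1.25% and 0.455% of all genes, so the share lower was near the background. Genes paired with vitamin D-only regions and no member had 27.3% higher and 16.04% lower, and genes paired with no VDR region 11.4% and 14.9%. RNA was not part of the rule. In bulk RNA, fewer cells of a kind and less RNA per cell cannot be told apart.

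The share of genes higher with vitamin D differed with the strength, place and number of members. In 4 classes by the strongest vitamin D -log10 q it was 35.6%, 40.6%, 43.9% and 55.7%, from weakest to strongest. It was 98 of 196 genes with a member summit within 1 kb of the start, 54.1% of 344 at 1 to 20 kb, 42.0% of 336 at 20 to 100 kb and 28.6% of 259 beyond 100 kb. In the last class 24.7% were lower. Among genes with 1 member it was 41.6% of 992, with 2 members 60.2% of 123, and with 3 or more 12 of 20. Genes at members that gained H3K9ac in both vitamin D libraries were higher in 42 of 61 cases and lower in 5, with a median of 0.41 in the authors' deposited table. Those at members that gained H3K27ac were higher in 11 of 33 and lower in 2.

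The other 2 comparisons share the untreated samples with this one, so their values stand side by side. With IL-13, 156 of 1133 genes at members (13.8%) were higher and 301 (26.6%) lower, against 12.3% and 14% of all 15172. Genes at vitamin D-only regions had 12.7% and 22.4%. With both agents, 413 of 1168 (35.4%) were higher and 191 (16.4%) lower, against 16% and 15.7% of all 15971.

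**Figure D4:**
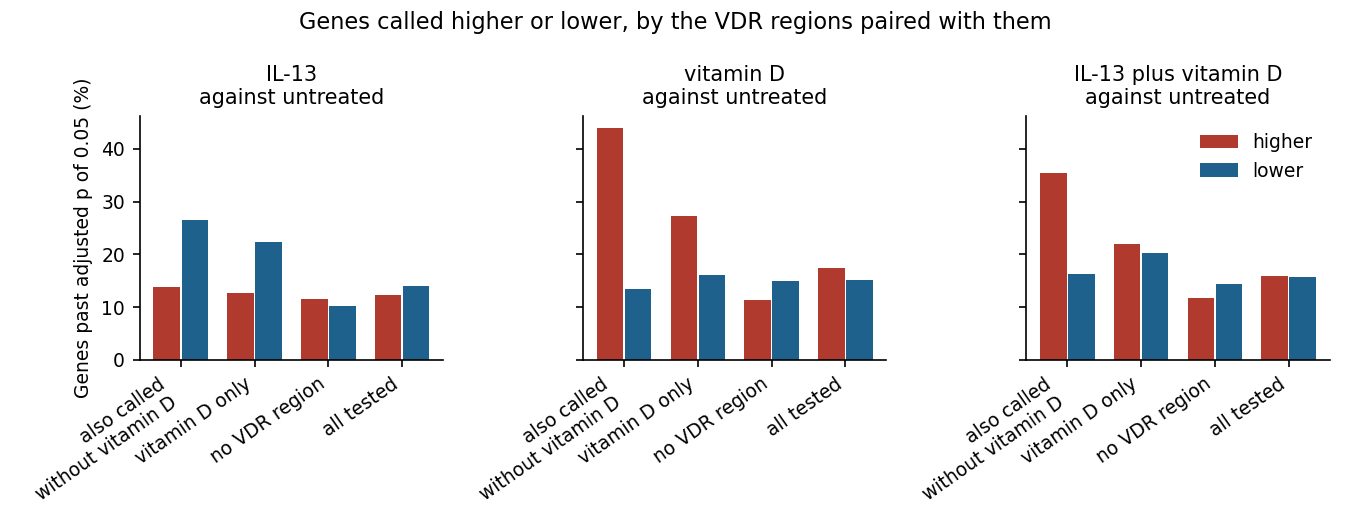
Percent of tested genes higher (red) or lower (blue) at the authors' adjusted p of 0.05 in each comparison with untreated cells, by the VDR regions paired with the gene. With vitamin D the red bar is 44.0% for genes at regions also called without vitamin D, 27.3% for vitamin D only and 11.4% for genes with no VDR region.

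CYP24A1, the enzyme that inactivates vitamin D, had 3 members and the largest rise. In the untreated, IL-13, vitamin D and combined groups its RPKM was 0.476, 0.281, 560 and 463. The authors' deposited table gave 9.92 on the log2 scale with vitamin D, with an adjusted p listed as 0. Its promoter member (chromosome 20, 52790132 to 52791434) had a VDR fold enrichment of 4.89 untreated and 23.9 with vitamin D. The untreated call at the promoter was weak, with a -log10 q of 2.97. The other 2 lay beyond the gene's end, at 9.47 and 36.1 (52757026 to 52758365) and at 9.09 and 15.01 (52744644 to 52745561). All 3 showed more H3K27ac with vitamin D: 4.17 and 8.09 at the promoter, 6.68 and 13.9 at the second and 6.68 and 16.2 at the third, untreated and with vitamin D. An H3K9ac region was called at each with vitamin D (6.13, 6.81 and 7.49) and at none untreated. The third also had one with IL-13 alone (4.04), where its H3K27ac was 7.94.

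In the same order CD14 had an RPKM of 2.62, 3.67, 132 and 216, so the 2 groups with vitamin D were far above the others. The authors' deposited table gave 5.57 with vitamin D, with an adjusted p listed as 0. Its promoter member (chromosome 5, 140012445 to 140013398) had a fold enrichment of 4.70 untreated, a weak call (-log10 q 2.58), and 26.1 with vitamin D. H3K4me3 there was 6.85, 10.2, 20.2 and 24.9 in the order untreated, IL-13, vitamin D, combined. CAMP, with the strongest member of all, stayed low in RNA, at 0.363, 0.390, 2.597 and 3.21 RPKM in the same order. The authors' deposited table gave 2.07 with vitamin D (adjusted p = 6.3e-25). IL1RL1, the receptor gene for the cytokine IL-33, had 2 members and 0.192, 0.221, 5.51 and 4.27 RPKM. Its change in the authors' deposited table was 4.36 (adjusted p = 1.88e-226).

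SERPINB1, an inhibitor of neutrophil proteases, had a strong intergenic member beyond its end (summit at position 50441 from the start), at 54.7 and 77.3. It also had a promoter member at 4.40 and 34.1, weakly called untreated (-log10 q 2.14). The RPKM of SERPINB1 was 64.0, 34.3, 407 and 207 in the same order, so the combined value lay between the single agents. The authors' deposited table gave 2.71 with vitamin D, with an adjusted p listed as 0. DHRS9, a retinol dehydrogenase gene, had 1.95, 0.286, 19.9 and 3.79 RPKM in that order, again with the combination between the single agents. GCNT3, a mucin glycosyltransferase gene, was raised by each agent: 0.969, 5.32, 5.36 and 24.2 RPKM, highest with both. COL13A1, a transmembrane collagen gene, had 0.108, 0.344, 1.03 and 6.79 RPKM, also highest with both.

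**Figure D5:**
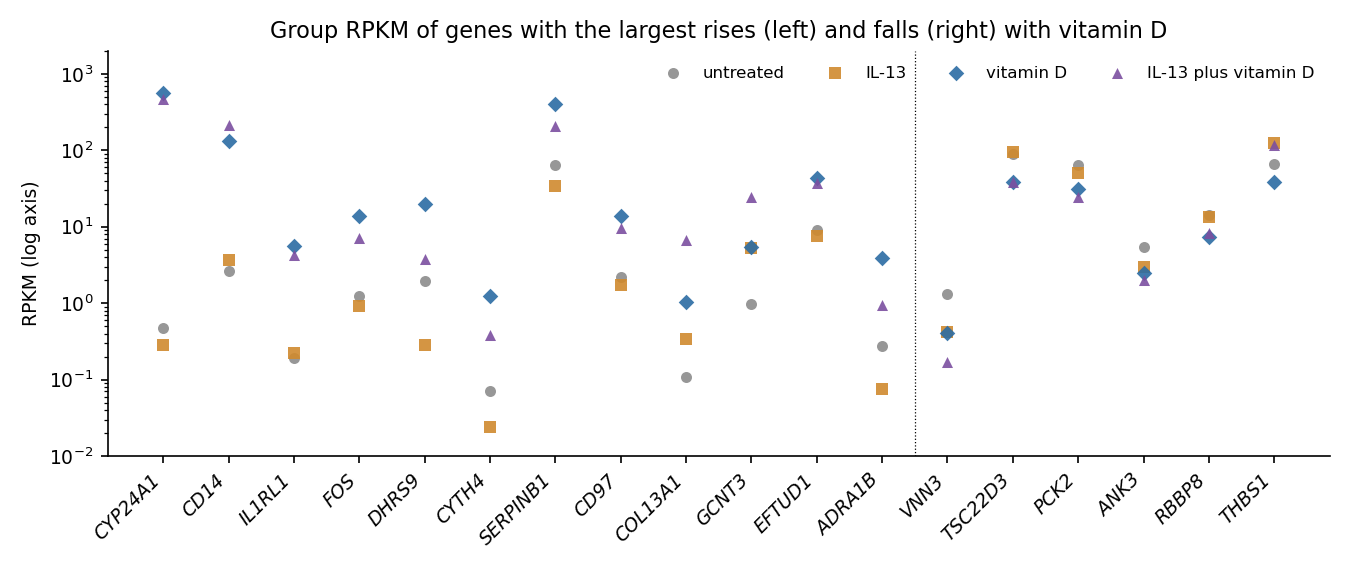
RPKM on a log axis in the 4 groups, 1 value per group, for the 12 genes at members with the largest rises with vitamin D (left of the dotted line) and the 6 with the largest falls (right). CYP24A1 spans 0.281 to 560, and for DHRS9 and SERPINB1 the value with both agents lies between those with IL-13 and with vitamin D.

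Of the other large rises, FOS had 2 intergenic members, at 49.8 and 84.1 and at 22.6 and 63.5. Its RPKM was 1.24, 0.913, 13.8 and 7.04, again in the order untreated, IL-13, vitamin D, combined. CD97, an adhesion receptor gene with a promoter member at 21.4 and 61.6, had 2.21, 1.75, 13.8 and 9.57 RPKM. EFTUD1, a ribosome assembly GTPase gene with members in its promoter and an intron, had 8.94, 7.46, 43.1 and 37.6 RPKM. CYTH4, an exchange factor gene for ARF proteins, had 0.0715, 0.0243, 1.22 and 0.382 RPKM, and its member was one of the 61 with the higher untreated value (6.79 and 4.99). ADRA1B, an adrenergic receptor gene with 3 members, had 0.278, 0.0743, 3.85 and 0.944 RPKM. For ADRA1B the authors' deposited table gave 2.26 with vitamin D, and the RPKM values, with 0.1 added to each, gave a log2 ratio of 3.39, so the size is uncertain.

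Falls were smaller. VNN3, a gene of the vanin family, had a promoter member at 7.39 and 22.7 and an RPKM of 1.30, 0.422, 0.405 and 0.170 in the same order. In the authors' deposited table it changed by -1.28 with vitamin D (adjusted p = 1.7e-11). TSC22D3, the glucocorticoid-induced leucine zipper gene, had 90.3, 94.5, 38.03 and 38.2 RPKM, a split between groups without and with vitamin D. PCK2, a gluconeogenic enzyme gene, had 64.6, 50.9, 31.5 and 24.3. ANK3, the ankyrin-G gene, had 5.38, 3.01, 2.51 and 2.01, and RBBP8, a DNA end resection gene, 14.3, 13.4, 7.25 and 8.34. THBS1, the thrombospondin-1 gene, was raised by IL-13 and lowered by vitamin D alone: 66.8, 123, 38.4 and 116 RPKM. Apart from that of VNN3, the members of these genes were upstream or intergenic. Those of TSC22D3, ANK3, RBBP8 and THBS1 had summits over 100 kb from the paired start, so the pairing is loose. In that distance class 28.6% of genes were higher with vitamin D and 24.7% lower. The members at VNN3, PCK2 and ANK3 met no region of any mark in any of the 12 histone libraries.

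At several strong regions the paired gene had no large RNA change. GLI3 had 1.93, 1.90, 1.87 and 2.09 RPKM in the order untreated, IL-13, vitamin D and both, and 0.02 in the authors' deposited table with vitamin D (adjusted p = 0.905). DUT had 8.86, 9.26, 9.54 and 10.6 RPKM and 0.18 with vitamin D in the authors' deposited table (adjusted p = 0.016). HM13 had 63.6, 56.9, 72.9 and 64.1 RPKM, and MARCKS 14.3, 14.99, 11.4 and 10.7. Genes at other strong regions did rise: CMIP had 19.97, 28.5, 36.4 and 48.2 RPKM, and DNER 5.31, 4.74, 14.8 and 14.9. In the authors' deposited table the changes with vitamin D were 0.91 for CMIP (adjusted p = 9.83e-115) and 1.51 for DNER (adjusted p = 1.86e-184).

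Of a list of 39 known VDR target genes, 11 had a member, and all 10 of these that were tested were higher with vitamin D. The whole list had 28 of 35 higher and 5 lower, with a median of 0.80 in the authors' deposited table. Such a list holds genes chosen for rising with vitamin D in earlier work, so its direction is not independent evidence. Beside those above, G0S2, a lipase inhibitor gene, had 40.8, 26.3, 81.4 and 47.6 RPKM in that order. The member paired with G0S2 was weakly called untreated (-log10 q 2.45). IGFBP3, which encodes a binding protein of insulin-like growth factors, had 108, 95.3, 195 and 140 RPKM and a member at 32.1 and 80.4. NFKBIA, the inhibitor of NF-kappaB, had 87.5, 82.8, 133 and 121 RPKM and SLC37A2, a sugar phosphate exchanger gene, 54.9, 29.8, 85.9 and 54.1. SPP1, the osteopontin gene, was listed at 0 untreated and at 0.0213, 0.0484 and 0.285 RPKM in the treated groups, and was not tested with vitamin D.

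Of 15 genes of vitamin D metabolism and its receptors, CYP24A1 and RXRB had members. RXRB, the gene of a VDR partner, had an upstream member (position -16666) at 12.2 and 28.8 and an RPKM of 13.2, 13.7, 14.3 and 14.2. VDR itself had no member and 9.12, 11.2, 7.62 and 9.74 RPKM. Of all genes in the RNA table, 5.77% had a member. Of 18 nuclear receptor coregulator genes 4 had a member, 2 of them higher with vitamin D and 1 lower, while the whole list had 5 of 17 higher and 2 lower. Of 17 genes of AP-1 and the immediate early response 6 had a member, 4 higher and 1 lower with vitamin D, while the whole list had 11 of 17 higher and 2 lower. JUNB, an AP-1 subunit gene, had a member at 57.4 and 94.7 and 114, 107, 191 and 152 RPKM, and DUSP5, a phosphatase gene, had 13.3, 11.3, 26.1 and 22.8.

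Of 30 genes of squamous differentiation 2 had a member, and of 14 basal genes 5, and these shares were not tested. The whole differentiation list had 1 of 29 higher and 23 lower with IL-13, and 9 and 14 with vitamin D. With both agents 4 of 30 were higher and 23 lower. The basal list had 7 of 14 higher and 4 lower with IL-13, 3 and 6 with vitamin D, and 5 and 7 with both. RPTN, the repetin gene of the cornified envelope, was the 1 differentiation gene higher with IL-13. It had a member at 27.4 and 62.2 and 5.77, 27.4, 12.9 and 84.0 RPKM, raised by each agent and highest with both. S100A9, a calprotectin subunit gene, had 5429, 4234, 5446 and 3911 RPKM. Among basal genes TP63, a transcription factor gene of basal epithelium, had an intronic member at 5.28 and 28.7 and 50.7, 72.3, 37.6 and 58.3 RPKM. CDH3, the P-cadherin gene, had 167, 242, 200 and 325 RPKM and LAMB3, a laminin gene, 253, 199, 321 and 237.

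The labelled cell type was checked with marker lists. All 14 basal epithelial genes reached 1 RPKM untreated, with a median of 160 RPKM, and KRT5 was at 10444. Fibroblast genes reached 1 RPKM in 2 of 9 cases, leukocyte genes in 1 of 8 and endothelial genes in 0 of 6. The 2 fibroblast genes that did were VIM at 104 and COL1A1 at 15.2 RPKM. The leukocyte gene PTPRC was listed at 0, and the endothelial gene PECAM1 was at 0.000961 RPKM. VWF, the highest endothelial gene untreated, had 0.514, 1.92, 1.18 and 3.15 RPKM in the order untreated, IL-13, vitamin D, combined. The summed level of the leukocyte list was 51.2 RPKM untreated and 61.1 with vitamin D, of which CD68 alone gave 50.8 and 60.5. None of these 3 lists had a member.

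Several genes carried 3 or more members. PTPN1, a tyrosine phosphatase gene, had 4, and 27.1 RPKM untreated and 48.5 with vitamin D, which is 0.89 in the authors' deposited table (adjusted p = 7.45e-166). HRH1, the histamine H1 receptor gene, had 3 and went from 3.68 to 7.44 RPKM. SDC1, the syndecan-1 gene, had 3 and went from 701 to 992. SH3PXD2A and SH3PXD2B, scaffold genes of invasive adhesions, had 3 each and went from 24.5 to 34.4 and from 14.3 to 26.4. TMEM45B was the 1 such gene that passed in the other direction, at 35.7 and 29.3. CSNK1A1, LPP, GALC and MTAP also had 3 members each and changes under 0.02 in size in the authors' deposited table.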

How the data were processed

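EPC2 cells gave 12 RNA and 16 ChIP-seq samples. The submitters' processing notes name MACS2, Bowtie, STAR, SAMtools and Trim Galore, without versions, and the builds hg19 and GRCh37. Settings and control libraries: not given in the sources used here. RNA files hold 1 RPKM value per group, with log2 fold changes, p-values and adjusted p-values, deposited by the authors. The test behind them is also unstated. Genes with an adjusted p of 1 (8356 of 23533 with vitamin D) were taken as not tested. Peak files hold the authors' pileup (a signal), fold enrichment (a ratio), and -log10 p and -log10 q, per the file headers. Mitochondrial summits were left out, and summits with 1 start and end were merged into a region with the values of the strongest.

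Genes and region classes are those paired in the deposited lists; 1 member whose symbol was a date was left unpaired. An RNA table whose name and header disagree was not used. Marks were compared over merged regions called in both libraries. Named regions were the 12 strongest members with vitamin D, the 6 strongest untreated and those at VDR list genes; named genes were theirs and the 12 largest rises and 6 largest falls at 1 RPKM or more. Genes of other lists, gained marks, extreme ratios and 3 or more members were named after their values were seen. The promoter search replaced a planned search around summits, for which no genome of the build was used here; 8 genes were matched by older symbols. Members and lists were chosen with earlier results of these data known. Overlap and centring were tested on simulated data. Python 3.11.15, pandas 2.3.3, numpy 2.4.6, scipy 1.17.1 and matplotlib 3.10.9 were used. ChIP values have no replicates and read depth is unknown, so no intervals are given. Alternatives were other overlap rules, -log10 q limits, centring, folds, adjusted p limits, distance, RPKM limits and pseudocounts.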

Additional observations from a re-analysis of the deposited data

How the results depend on the processing

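No paired analysis was possible because the RNA tables hold 1 value per group and each ChIP condition 1 library, which also allowed no replicate to be left out. Of the alternatives to the main counts, 24 stayed within 1.5 times the reported value and 26 did not; the adjusted p of 0.01 and the limit of 1 RPKM were among the former. At that limit 49.8% of 928 genes at members and 21.5% of all genes were higher with vitamin D. A -log10 q of at least 5 in both VDR lists left 955 regions, of which 751 met an H3K27ac region untreated and 769 with vitamin D, 246 and 251 an H3K4me3 region, and 88 genes were lower with vitamin D. Their counts fell because fewer regions entered. With the VDR summit inside the mark region, 369 members had H3K9ac untreated and 484 with vitamin D, and 463 with vitamin D at a mark -log10 q of at least 5; the cause was not tested. Without centring, regions higher and lower with vitamin D were 102 and 44 for H3K27ac, 29 and 10 for H3K4me3, with 25 lower for H3K9ac. At 2-fold they were 66 and 0, 3 and 3, and 11 and 1 for H3K9ac. These are counts at members, without the share of all regions at the same setting beside them. Within 20 kb of the start, fewer genes entered: 59 were higher and 146 lower with IL-13, 284 and 42 with vitamin D, and 227 and 75 with both. At that distance 52.6% of 540 genes were higher with vitamin D. Of the named genes' log2 changes, 29 alternative values stayed close and 7 did not, none with another sign. With 1 ChIP library per condition, differences between libraries in depth or antibody yield cannot be told apart from treatment.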
